A study of Mus musculus with 14 samples.

Results

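The genes described here encode the enzymes, the structural proteins and the transport proteins of the melanosome, the organelle in which melanin is made and stored. They are the 10 genes Tyr, Tyrp1, Dct, Pmel, Mlana, Oca2, Slc45a2, Slc24a5, Gpr143 and Rab27a, taken by name from a table of 34452 mouse genes. All 10 were abundant enough to be tested, among 16289 genes tested in all. RNA was measured in retinal pigment epithelium (RPE) from rd1 mice aged 20 days (P20). This allele abolishes Pde6b function, and rods die young. For every animal of the 7, 1 eye had received AAV-Best1-Nrf2 together with AAV-Best1-GFP (the Nrf2 eye), and the other eye had received AAV-Best1-GFP alone (the control eye). The study's methods state fewer pairs for this age than the 7 in the labels and the table, and all 7 were used. Both groups therefore carried the rd1 mutation, a virus and GFP, and the Nrf2 eye differed by the transgene, which is human Nrf2, and by an added virus in another capsid. The Best1 promoter is active in the RPE, so the transgene was aimed at that layer.

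The RPE makes its pigment before birth and shortly after, and keeps it for life. Tyrosinase (Tyr) carries out the first and rate-limiting step from tyrosine, and its relatives Dct and Tyrp1 act on later intermediates of black-brown melanin. Pmel forms the fibrils on which melanin is laid down, and Oca2, Slc45a2 and Slc24a5 set the ion and pH conditions of the organelle. In RPE, Rab27a links melanosomes to the motor Myo7a through Myrip. The study's methods name FVB/N as the source of the rd1 mice, which is an albino strain that carries an inactivating missense allele of Tyr. Levels below are of transcripts, and no pigment or enzyme activity was measured.

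Mitf, the master regulator of pigment cells, binds the M-box, whose core is TCATGTG. The reference promoters of RefSeq (build GRCm38.p6, 250 bases before to 50 bases after a start) had entries for 6 of the 10 genes, namely Tyr, Tyrp1, Dct, Oca2, Slc24a5 and Rab27a. A search of both strands found the core in 4 of these 6, and in 3.77% of all 32851 promoters of that length. The matches are shown because these 4 genes share the core. Oca2 and Rab27a had no match, and the genes without an entry were not searched. Each line gives the 7 bases of the core in capitals with 11 bases on either side, 5′ to 3′ along the strand on which the core reads TCATGTG.

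Tyr, 22 bases before the start, at chr7:87493517-87493545, minus strand: gaaaaagttagTCATGTGctttgcagaag
Tyrp1, 47 bases before the start, at chr4:80834155-80834183, plus strand: tggggagggagTCATGTGctgcctagtag
Dct, 151 bases before the start, at chr14:118052380-118052408, minus strand: tgcacttagggTCATGTGctaacaaagag
Dct, 232 bases before the start, at chr14:118052461-118052489, plus strand: ctttattgggcTCATGTGtcccagccaag
Slc24a5, 13 bases before the start, at chr2:125068103-125068131, minus strand: cttatgctgaaTCATGTGagcagtctcct

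The distances are those of the first base of the core in the direction of the gene. In Tyr, Tyrp1 and the nearer Dct match, the core lay in the direction of the gene and was followed by the bases CT. In Slc24a5 and the farther Dct match, it lay in the opposite direction. The Otx site TAATCC was present in the windows of Tyrp1 and Dct and in 7.06% of all promoters. The core of the antioxidant response element to which Nrf2 binds, TGACNNNGC, was in none of the 6 windows and in 12.4% of all promoters. These are matches of letters in a reference genome, not sites shown to be bound.

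Total counts per library ranged from 16548349 to 50543008, and the smallest count of any of the 10 genes in any library was 836. Levels are given as CPM (counts per 1000000, with each library total first multiplied by its TMM factor from the test). The vector transcript, human NFE2L2, ranged from 0.986 to 1161 CPM in control eyes and from 1145 to 9826 CPM in Nrf2 eyes, and was higher in the Nrf2 eye of 7 of 7 mice. The top of the control range was control 3 and the bottom of the Nrf2 range was Nrf2 4, so these libraries lay between the groups. Markers of RPE were present, with summed levels of the 15 listed genes from 7145 to 35030 CPM over both groups. Best1 itself was near 0, at 0.278 to 3.68 CPM. Rpe65, the visual cycle isomerase, fell by 2.17 on the log2 scale (SE 0.37, adjusted p = 0.0199), with the Nrf2 eye below its partner in every one of the 7 animals. The RPE markers, Rlbp1 and Ttr, had log2 fold changes of -0.42 and 1.58 (adjusted p = 0.407 and 0.104). In bulk RNA, fewer cells of a type and less RNA per cell cannot be told apart.

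None of the 10 melanin genes passed an adjusted p of 0.05 between Nrf2 and control eyes in the paired test of edgeR. Of all genes tested, 3.43% passed that threshold, 2.94% as higher and 0.491% as lower in Nrf2 eyes. At an unadjusted p under 0.05, 1 of the 10 passed, against 18.1% of all genes. The median log2 fold change (the fitted difference of Nrf2 against control eyes, on the log2 scale) of the 10 was 0.12, beside -0.04 over all genes, with 6 above 0 and 4 below. The 95% intervals of all 10 lay within 1 log2 unit of 0. In none of the 10 were the 2 groups free of overlap, against 1.56% of all genes tested, so a count of 0 among 10 genes is near that background. DESeq2 called 1 of the 10, Tyr, and 10.4% of all genes. The fit without mice 3 and 4, the sources of control 3 and Nrf2 4, called 0 of the 10.

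**Figure D1:**
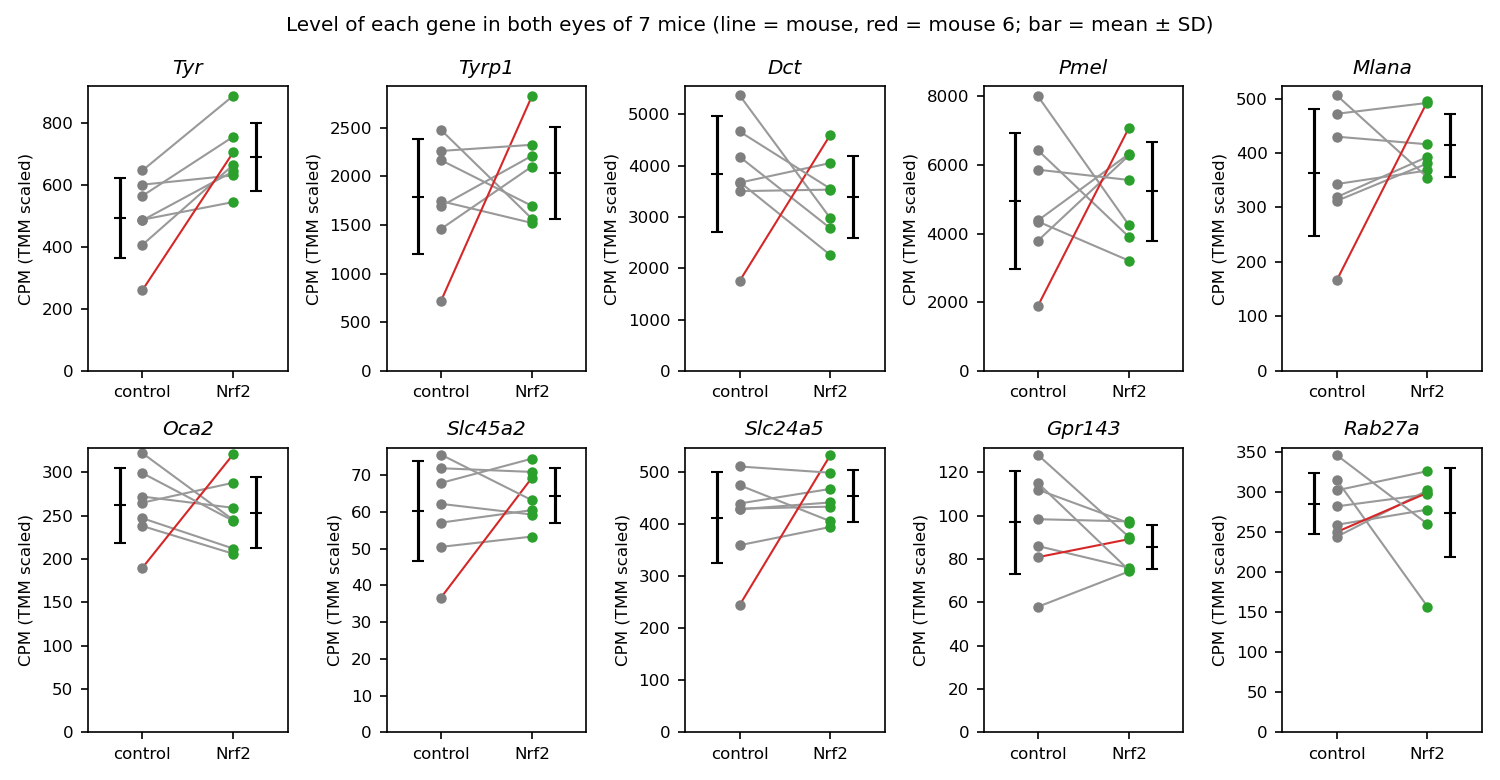
Level of each melanin gene in CPM (y axes start at 0) in the control and the Nrf2 eye of each mouse, with a line per mouse, mouse 6 in red, and the mean and SD of the 7 eyes beside the points. The groups overlap in every panel, Tyr is higher in the Nrf2 eye of 7 of 7 mice, and the control eye of mouse 6 is the lowest point of 8 panels.

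Tyr (ENSMUSG00000004651, chr7:87424771-87493512 of GRCm38, minus strand) was the enzyme with the most uniform direction. Its level in control eyes had a lowest value of 261, a median of 488 and a highest value of 647 CPM, and in Nrf2 eyes 545, 665 and 888 CPM. The Nrf2 eye was higher in 7 of 7 mice, although the ranges of the groups overlapped. The means were 494 ± 130 and 691 ± 109 CPM (SD, n = 7), and the fitted log2 difference was 0.52 (SE 0.17, 95% interval 0.13 to 0.92, adjusted p = 0.16, edgeR). When libraries were scaled by their totals alone, the Nrf2 eye was higher in 5 of 7 mice, and the log2 fold change was 0.39 (adjusted p = 0.284). Without mouse 6, it was 0.36 (adjusted p = 0.217). DESeq2 gave an adjusted p of 0.0381. Over all 15 alternatives the adjusted p of Tyr ranged from 0.0381 to 0.33, and its log2 fold change from 0.36 to 0.62.

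Tyrp1, which oxidizes a later intermediate, ranged from 719 to 2476 CPM in control eyes with a median of 1744, and from 1520 to 2822 CPM in Nrf2 eyes with a median of 2100. In 4 mice the Nrf2 eye was the higher one, in 3 the control eye. Its fitted log2 difference was 0.23 (SE 0.31, 95% interval -0.47 to 0.92, adjusted p = 0.736). Dct (chr14:118012790-118052244, minus strand), the tautomerase of the pathway, ranged from 1750 to 5368 CPM in control eyes with a median of 3681, and from 2256 to 4601 CPM in Nrf2 eyes with a median of 3531. It was higher in 3 mice and lower in 4, with a fitted log2 difference of -0.15 (SE 0.29, 95% interval -0.81 to 0.50, adjusted p = 0.82). The intervals of Tyrp1 and Dct were wider than that of Tyr and included 0. Like the interval of Tyr, they leave room for a change of over 0.8 log2 units in 1 direction.

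Tyr and Dct were also compared as a ratio within each library, which no scaling of libraries can change. The ratio was chosen after its values were seen and carries no test. Control eyes had 13.2, 11.6, 13.5, 13.3, 11.2, 14.9 and 13.9 Tyr counts per 100 Dct counts in mice 1 to 7. Nrf2 eyes had 28.6, 18.8, 27.2, 13.5, 21.2, 15.4 and 25 in the same order. The control values thus lay close together, while those of the Nrf2 eyes were spread, with Nrf2 4 inside the control range and the other 6 above it. The mean difference in the log2 ratio was 0.66 with an SD of 0.45, from 0.02 to 1.11. Of the 45 ratios between the 10 genes, 7 moved in 1 direction in 7 of 7 mice, and 4 of these 7 involved Tyr, set against Dct, Oca2, Slc45a2 and Slc24a5. Tyrp1 was also higher relative to Dct in the Nrf2 eye of every mouse, by a mean log2 difference of 0.39 (SD 0.16, from 0.19 to 0.58). The other such ratios were Dct to Mlana and Oca2 to Slc45a2, both lower in Nrf2 eyes. The 45 ratios share genes, and Tyr itself was higher in 7 of 7 mice. No such count was made for other gene pairs, so the count of 7 has no background to be read against.

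**Figure D2:**
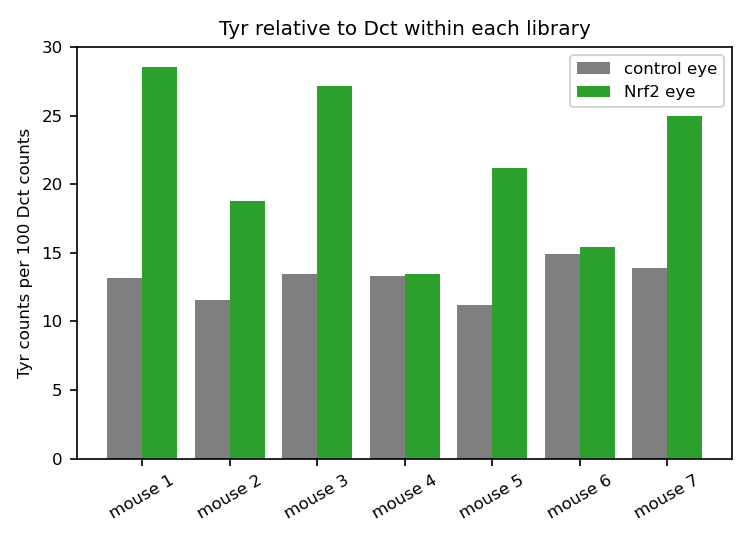
Tyr counts per 100 Dct counts (y axis, from 0) in the control eye (grey) and the Nrf2 eye (green) of each of the 7 mice. Control bars lie between 11.2 and 14.9, and the Nrf2 bars between 13.5 and 28.6.

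Of the structural proteins, Pmel was the most abundant gene of the set. It ranged from 1903 to 7991 CPM in control eyes with a median of 4385, and from 3210 to 7080 CPM in Nrf2 eyes with a median of 5559. It was higher in 3 mice and lower in 4, and its fitted log2 difference was 0.13 (SE 0.36, 95% interval -0.70 to 0.95, adjusted p = 0.889). Mlana, a small membrane protein that Pmel processing depends on, ranged from 166 to 506 CPM in control eyes and from 355 to 495 CPM in Nrf2 eyes, with medians of 343 and 393 CPM. It was higher in 5 mice, with a fitted log2 difference of 0.25 (SE 0.22, adjusted p = 0.591).

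None of the 3 transporters passed the test. Oca2, a chloride channel that raises melanosomal pH, had a fitted log2 difference of -0.05 (SE 0.15, 95% interval -0.38 to 0.29, adjusted p = 0.903). Its medians were 265 CPM in control and 245 CPM in Nrf2 eyes. Slc45a2, a sugar and proton transporter of the maturing melanosome, had medians of 62.2 and 63.2 CPM and a fitted log2 difference of 0.12 (SE 0.14, 95% interval -0.19 to 0.43, adjusted p = 0.67). Slc24a5, a sodium-calcium exchanger, had medians of 429 and 441 CPM and a fitted log2 difference of 0.16 (SE 0.17, 95% interval -0.21 to 0.54, adjusted p = 0.638). In none of the 3 did the direction hold in 7 of 7 mice.

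Gpr143, the melanosomal receptor mutated in ocular albinism, ranged from 58 to 128 CPM in control and from 74.3 to 97.4 CPM in Nrf2 eyes, so the Nrf2 eyes lay inside the control range. It was lower in 5 of 7 mice, with a fitted log2 difference of -0.14 (SE 0.13, 95% interval -0.43 to 0.15, adjusted p = 0.585). Rab27a, the GTPase that tethers melanosomes to the cytoskeleton, ranged from 244 to 346 CPM in control eyes. In Nrf2 eyes it lay between 260 and 326 CPM except for Nrf2 2, at 157 CPM. Its fitted log2 difference was -0.07 (SE 0.17, 95% interval -0.46 to 0.31, adjusted p = 0.853), although the Nrf2 eye was higher in 5 of 7 mice.

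Compared per length, the set spanned about 2 orders of magnitude. Levels were computed as TPM (transcripts, divided by length and rescaled to sum to 1000000) from the exons of each gene merged. In control eyes Pmel was highest at 6569 ± 2556 TPM (SD, n = 7), followed by Dct at 1979 ± 602, Tyrp1 at 1927 ± 644, Mlana at 1044 ± 324 and Slc24a5 at 537 ± 123 TPM. Rab27a (222 ± 30.3), Tyr (212 ± 59.1), Oca2 (201 ± 37.9), Gpr143 (147 ± 39.1) and Slc45a2 (61.5 ± 15) followed in TPM. Even Slc45a2 stood at percentile 83.8 of all tested genes in control eyes. The steps from Pmel to Dct, Tyrp1 to Mlana, Mlana to Slc24a5, Slc24a5 to Rab27a and Gpr143 to Slc45a2 held in 7 of 7 libraries of both groups. Dct was above Tyrp1 in 5 of 7 control libraries and in 0 of 7 Nrf2 libraries, and Rab27a was above Tyr in 3 of 7 and 0 of 7, so these neighbours were not apart in control eyes. Tyr was above Oca2 in 5 of 7 control and 7 of 7 Nrf2 libraries, and Oca2 above Gpr143 in 6 of 7 and 7 of 7. With the longest transcript as the length, Dct came to 2643 TPM and Tyrp1 to 1570 TPM, so the distance between these 2 depends on the gene model.

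A single library stood apart in most of the 10 genes. Control 6 was the lowest of all 14 libraries for 8 of the 10 genes, the exceptions being Gpr143 and Rab27a. Among all tested genes, 26.6% had their lowest control level in control 6. The mean of the 10 genes, each centred over the 14 libraries, was -0.82 log2 units in control 6 and lay between -0.20 and 0.32 in the other 13. The difference between the eyes was highest in mouse 6 for 8 of the 10 genes, reaching 1.97 for Tyrp1 and 1.90 for Pmel. Without mouse 6, the log2 fold changes were -0.05 for Tyrp1, -0.41 for Dct, -0.16 for Pmel, 0.02 for Mlana, -0.19 for Oca2, -0.02 for Slc45a2, -0.01 for Slc24a5, -0.20 for Gpr143 and -0.14 for Rab27a. With Tyr at 0.36, 2 of the 10 were then above 0, and the median was -0.10. The summed level of 5 genes of surface epithelium (Krt5, Krt14, Krt12, Krt15 and Trp63), which mark cornea and conjunctiva, was highest in control 6, at 50393 CPM. It lay between 1578 and 29365 CPM in the other control eyes and between 2025 and 22300 CPM in Nrf2 eyes, and was higher in the Nrf2 eye of 1 of 7 mice. The summed level of 6 fibroblast genes (Col1a1, Col1a2, Col3a1, Dcn, Lum and Pdgfra) was lowest in control 6, at 115 CPM. It lay between 399 and 700 CPM in the other control eyes and between 291 and 980 CPM in Nrf2 eyes, of which Nrf2 6 had 953 CPM. The log2 differences of Col1a1 in mice 1 to 7, at -0.46, 1.47, -0.95, 0.46, -1.36, 3.75 and 0.09, had the same signs as those of Tyrp1, at -0.20, 0.53, -0.35, 0.39, -0.66, 1.97 and 0.04. Col1a1 was singled out after its values were seen, and the other fibroblast genes did not match these signs in every mouse. In mouse 7, Col1a2, Col3a1, Dcn, Lum and Pdgfra were at -0.36, -0.05, -0.21, -0.54 and -1.42. Col3a1 and Dcn also differed in sign from Tyrp1 in mouse 1, and Lum in mouse 5. None of the 5 surface epithelium genes and none of the 6 fibroblast genes passed the test. The part of either cell type in the melanin genes was not tested. Control 5 had the second highest surface epithelium sum of controls and the highest control level for 5 of the 10 genes. Of all tested genes, 14% had their highest control level in that library. Control 5 also had the lowest RPE marker sum of the 14 libraries, at 7145 CPM, against 17609 to 30025 CPM in the other control eyes. Gpr143, unlike those 5 genes, was at its lowest level of all 14 libraries in control 5, at 58 CPM. The cause of these levels was not tested.

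**Figure D3:**
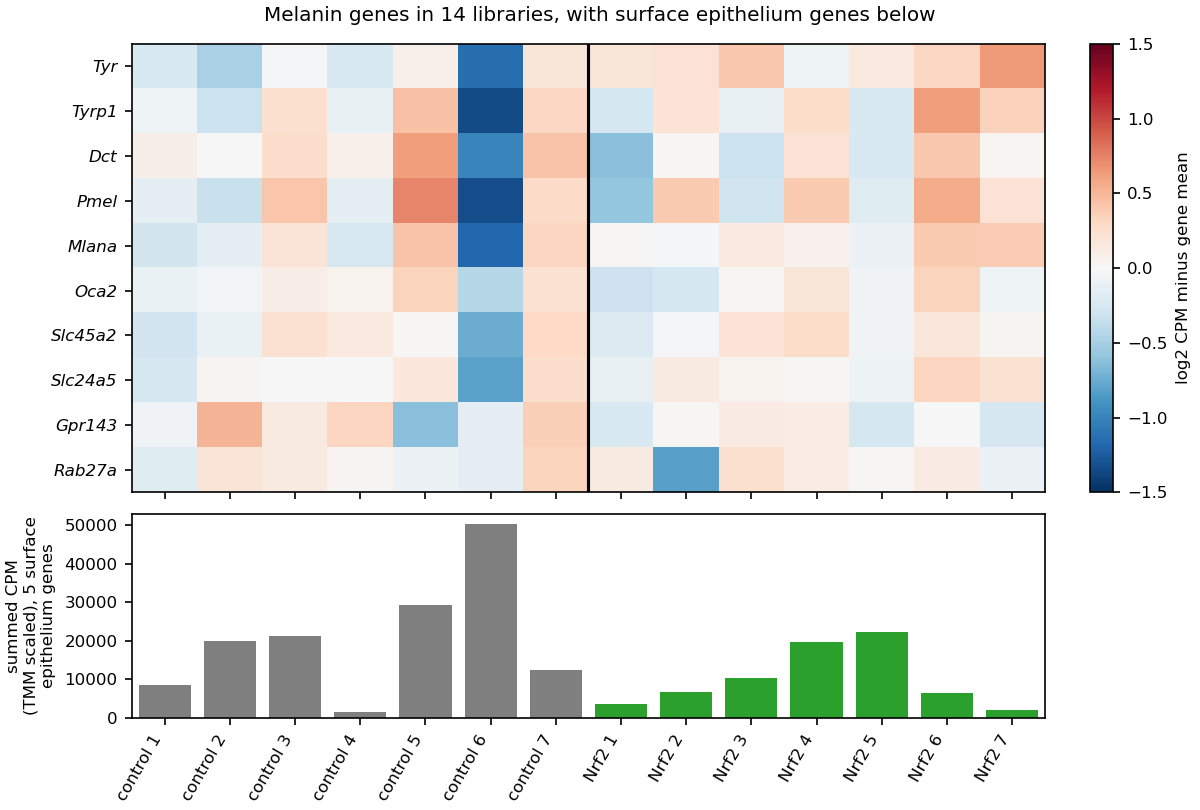
Top, log2 CPM of each melanin gene minus its mean over 14 libraries (colour, from blue below to red above the mean), with the 7 control libraries left of the black line and the 7 Nrf2 libraries right of it. Bottom, summed CPM of 5 surface epithelium genes in the same libraries (bars from 0), in which control 6 at 50393 CPM is the highest and is also the bluest column above.

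The 10 genes varied together over the 14 libraries to different degrees. Pearson's r with the mean of the other 9 genes was 0.94 for Tyrp1 and Slc24a5, 0.92 for Mlana, 0.90 for Slc45a2, 0.86 for Pmel, 0.84 for Dct, 0.81 for Oca2 and 0.68 for Tyr, but 0.17 for Rab27a and 0.03 for Gpr143. Without control 6, over 13 libraries, Oca2 remained at 0.80 while Tyr was at 0.19, and Tyrp1 was 0.83 and Gpr143 -0.15. These are descriptions over libraries that share mice. The genes outside the set that were most alike over 14 libraries, of 11994 with at least 5 CPM on average, were Hspb2 (r = 0.97) and, each with r = 0.96, Islr, Rapsn, Lgals1 and St3gal5. Without control 6 their r lay between 0.86 and 0.93.

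The wider pathway list held 59 other genes of melanosome regulation, biogenesis and transport, and 57 were tested. Of these, 2 passed the threshold, both higher in Nrf2 eyes, and 36 had a log2 fold change above 0 and 21 below. The count of 2 in 57 is close to the 3.43% called among all genes, so it says nothing particular about the pathway. The median was 0.10, beside -0.04 over all genes. Both genes lost the call when libraries were scaled by their totals alone, which moved the median of all genes by -0.13 log2 units. Their log2 fold changes were then 0.57 for Atp7a and 1.91 for Cited1, against 0.70 and 2.04 as reported.

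Atp7a (chrX:106027276-106124926, plus strand), the copper pump that supplies copper to tyrosinase, rose in the Nrf2 eye of 7 of 7 mice. Its lowest, median and highest levels were 29.2, 40.6 and 47.4 CPM in control eyes and 45.1, 59.7 and 76.4 CPM in Nrf2 eyes, so the groups overlapped slightly. The fitted log2 difference was 0.70 (SE 0.13, 95% interval 0.39 to 1.01, adjusted p = 0.0295), and the adjusted p ranged from 2.29e-04 to 0.105 over 15 alternatives, of which 7 kept the call. Cited1 (chrX:102247381-102252181, minus strand), a transcriptional coactivator known from melanocytes, rose from a mean of 2.41 ± 1.47 to 9.1 ± 4.52 CPM (SD, n = 7). It was higher in 6 of 7 mice, the exception being mouse 4. Its fitted log2 difference was 2.04 (SE 0.45, 95% interval 1.02 to 3.06, adjusted p = 0.0459), with a lowest count of 16 in a library. Over the 15 alternatives its adjusted p ranged from 4.47e-05 to 0.147, and 7 kept the call. No match to TGACNNNGC was found in the promoter window of Atp7a, while the E-box CACGTG, present in 7.15% of promoters, was found there. Cited1 had no match to any searched motif, but whether the reference promoters held an entry for it was not recorded.

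**Figure D4:**
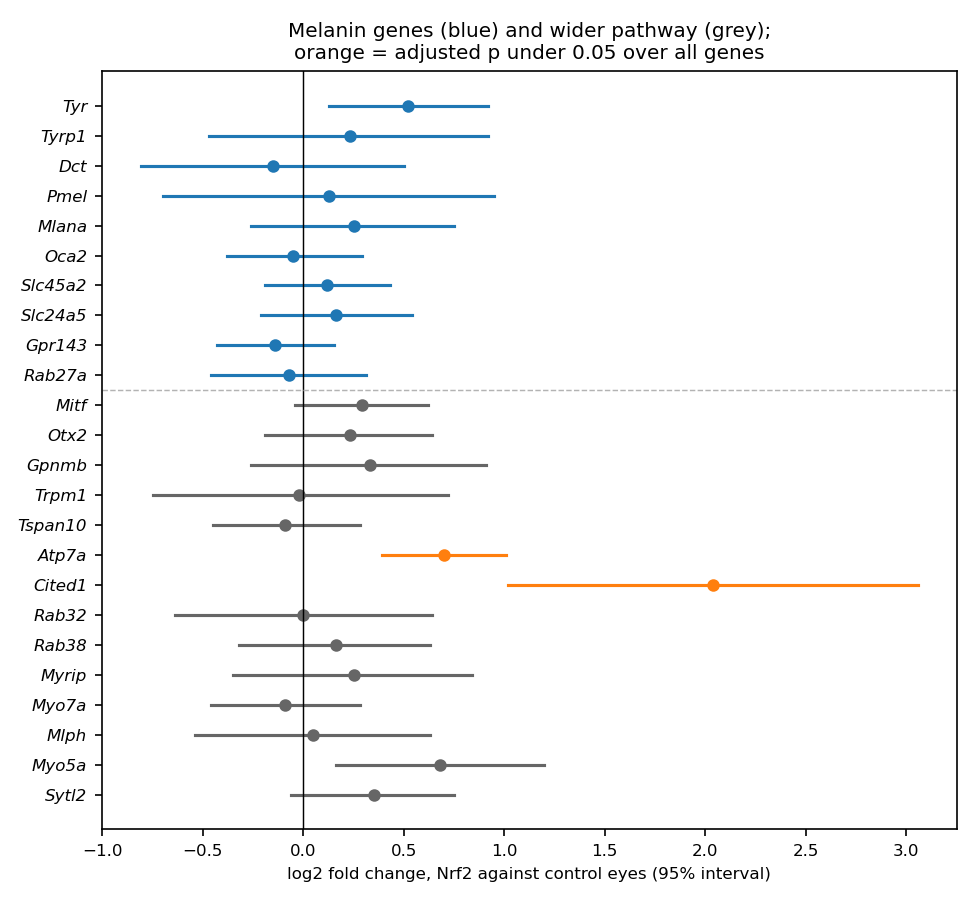
Log2 fold change of Nrf2 against control eyes (x axis) with 95% intervals from edgeR for the 10 melanin genes (blue, above the dashed line) and 14 genes of the wider pathway (grey, or orange where the adjusted p over all genes was under 0.05). The intervals of Atp7a and Cited1 lie to the right of 0 and are the only orange ones, and no blue interval reaches beyond 1.

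None of the 6 transcription factors of the pathway list passed the test, and their directions differed. Mitf had a fitted log2 difference of 0.29 (SE 0.14, adjusted p = 0.334), with medians of 67.3 CPM in control and 85.4 CPM in Nrf2 eyes. Otx2, which acts with Mitf in RPE, had 0.23 (SE 0.18, adjusted p = 0.541). Pax6, a factor of eye development, had -0.64 (SE 0.19, adjusted p = 0.131) and was below its partner in the Nrf2 eye of 6 of 7 mice. It is named after its values were seen, and passed the threshold under DESeq2, under voom and without mouse 4. The melanosomal glycoprotein Gpnmb, known as a target of Mitf, had 0.33 (SE 0.26, adjusted p = 0.535). Trpm1, a channel whose gene is another Mitf target, had -0.02 (adjusted p = 0.983), and the tetraspanin Tspan10 had -0.09 (adjusted p = 0.819), with 6 of 7 mice on the lower side.

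Transport and sorting genes did not pass either. Rab32 and Rab38, which deliver enzymes to the melanosome, had log2 fold changes of -0.00 and 0.16 (adjusted p = 0.997 and 0.733). Myrip and Myo7a, the partners of Rab27a in RPE, had 0.25 and -0.09 (adjusted p = 0.653 and 0.821). Mlph and Myo5a, its partners in melanocytes, had 0.05 and 0.68 (adjusted p = 0.948 and 0.166). Myo5a ranged from 24.1 to 86.9 CPM in control and from 58.1 to 111 CPM in Nrf2 eyes, and was higher in 7 of 7 mice. Sytl2, another Rab27a effector, had 0.35 (adjusted p = 0.342).

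Melanocytes, which express these genes too, and retinal cells were checked by their markers. The 6 melanocyte genes summed to 127 to 311 CPM in control and 135 to 257 CPM in Nrf2 eyes, and 0 of 6 passed the test. The highest sum was in control 6, which also had the highest surface epithelium sum. Kit, Erbb3 and Tfap2a of this list were highest there, at 116, 126 and 11.7 CPM, while Sox10, Ednrb and Mc1r were not. Whether the sum follows melanocytes was not tested. Sox10, listed as a marker of melanocytes, ranged from 17.9 to 86.3 CPM over all libraries. Its fitted log2 difference was 0.23 (SE 0.37, adjusted p = 0.788). It was lowest in control 5, which had the lowest RPE marker sum of the 14 libraries, at 7145 CPM. It was highest in Nrf2 1, where that sum was 32549 CPM. The cells that Sox10 RNA came from were not tested. The part of melanocyte RNA in the levels of the melanin genes was not tested. The 9 cone genes summed to 43.3 to 928 CPM in control and 19.9 to 97.7 CPM in Nrf2 eyes, and were lower in the Nrf2 eye of 7 of 7 mice, with 2 of 9 past the threshold as lower. The 10 rod genes had a median log2 fold change of -1.57, with 1 past the threshold as higher, and their sum was higher in the Nrf2 eye of 5 of 7 mice. The inner retina list, of which 10 genes were tested, had a median of -1.43, with 0 past the threshold and a sum higher in the Nrf2 eye of 2 of 7 mice. Rlbp1, named above as an RPE marker, was also on the inner retina list. In control eyes its median was 1709 CPM, beside 2388 CPM for the whole sum, so the sum does not follow retinal neurons alone. The part of retinal cells in the levels of the melanin genes was not tested.

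**Figure D5:**
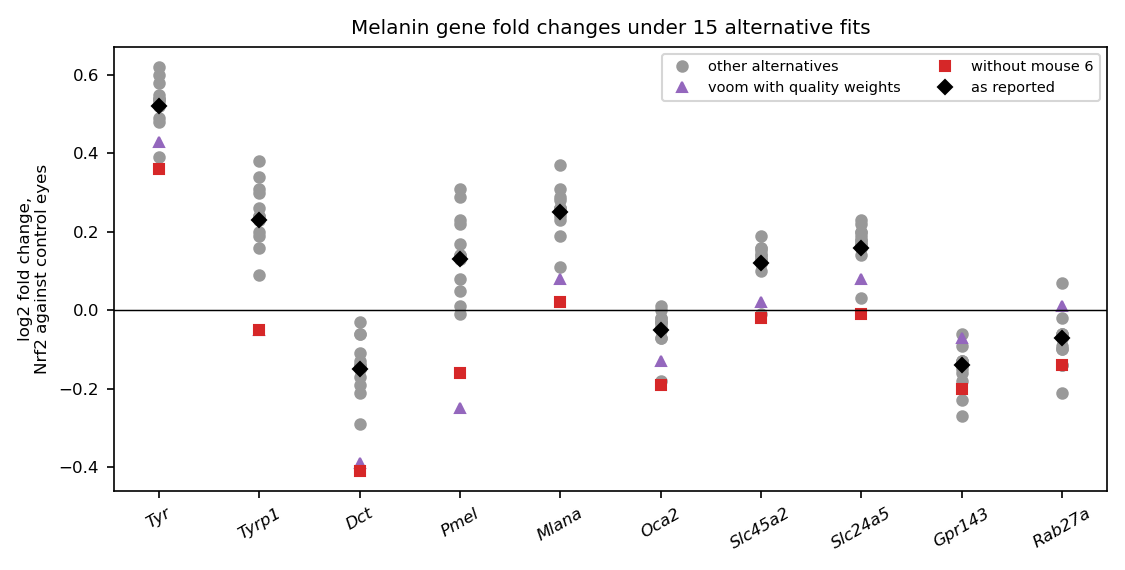
Log2 fold change of each melanin gene (y axis) as reported (black diamonds) and under 15 alternative fits, with the fit without mouse 6 as red squares, voom with quality weights as purple triangles and the others as grey points. All values lie within 0.62 of 0, Tyr and Mlana stay above 0, Dct and Gpr143 stay below 0, and the other 6 genes have values on both sides of 0.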

How the data were processed

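RNA from RPE of 14 eyes (7 mice, both eyes of each) was amplified by the authors with a low-input kit and sequenced in 2 runs, which the labels do not assign to libraries. The authors deposited estimated counts, summed per gene from Salmon 0.9.1 on mm10 with Ensembl release 91 annotation, not normalized. Reads carried no molecular identifiers, and no independent molecules can be counted. The labels identified the library of each of the 14 columns. The vector row was kept out of the adjustment.

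Log2 fold changes, SEs and p-values came from the edgeR 4.0.16 quasi-likelihood test (R 4.3.3) with mouse and treatment, TMM and filterByExpr with a minimum count of 10, adjusted by Benjamini-Hochberg over 16289 genes (threshold 0.05). The 95% intervals used 6 residual and 2.68 prior degrees of freedom. Pairing is by animal, and deviations from group means of both eyes correlated at 0, 0.08, 0.03, -0.31, 0.3, -0.16 and 0.14 in mice 1 to 7. Positions and lengths came from GENCODE M21 (34401 rows matched). Alternatives were no block, RLE, DESeq2 1.42.0, voom in limma 3.58.1, other filters, a threshold of 0.1, each mouse left out, mice 3 and 4 left out, the longest transcript as length and, chosen after seeing the data, total count scaling. Members and lists were chosen with earlier results of these data known. Pax6 and Col1a1 were added after their values were seen, as were single marker genes given beside the list sums. Otherwise named genes were the 10 members, the list genes past the threshold, 13 fixed pathway genes, Rpe65, Rlbp1, Best1, Ttr, Sox10 and the vector as checks, and the 5 most alike genes.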

Additional observations from a re-analysis of the deposited data

Results flagged for a closer look

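Of 36 groups of 7 values examined, 4 held a value that stood apart from the rest by Dixon's criterion at the 95% level, where chance flags about 5% of groups. In mouse 6 the log2 difference between the eyes was 1.57 for Mlana, 0.91 for Slc45a2 and 1.13 for Slc24a5, each far above the other 6 mice. These 3 rest on the same library, control 6, which also had the highest sum of surface epithelium genes. The 4th value was Rab27a in Nrf2 2, at 157 CPM, below the other 6 Nrf2 eyes. No cause of any of them was tested.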

How the results depend on the processing

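Of 150 values of single melanin genes under the alternatives, 138 kept direction and side of the threshold, 11 changed sign and 1 (Tyr under DESeq2) passed the threshold. Members called were 1 under DESeq2 and 0 in every other fit. Under voom, Tyrp1 was -0.05, Pmel -0.25 and Rab27a 0.01. Under total count scaling, Pmel and Slc45a2 were both -0.01. Leaving out each mouse gave ranges of -0.05 to 0.38 for Tyrp1, -0.16 to 0.31 for Pmel, -0.19 to 0.01 for Oca2, -0.02 to 0.19 for Slc45a2, -0.01 to 0.23 for Slc24a5 and -0.14 to 0.07 for Rab27a. The cause was not tested. All genes called were 559 as reported, 1907 under DESeq2, 2590 under voom, 347 with no filter, 1030 at a threshold of 0.1, and 111 to 1998 with each mouse left out. The 1998 came without mouse 4 and the 111 without mouse 7. Wider pathway genes called were 5, 9, 0, 4 and 0 to 4 in the same order, and 0 under total count scaling, where 314 genes were higher and 198 lower, against 479 and 80 as reported. With no replicate block instead of the paired fit, 1100 genes, 4 wider pathway genes and 0 members were called. Without mice 3 and 4, 745 genes were called, with Cited1 and Rab27b in the wider pathway. Cited1 lost the call in 6 of the 7 fits that left out a mouse and Atp7a in 5 of 7, while their log2 fold changes stayed between 1.78 and 2.38 and between 0.60 and 0.77. The lowest count of a member in any library was 836.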
